A study of Mus musculus with 2 samples.

Results

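Nr4a-high myonuclei are muscle fibre nuclei with at least 2 summed unique molecular identifiers (UMIs, each standing for 1 captured transcript) of the nuclear receptor genes Nr4a1, Nr4a2 and Nr4a3. A nucleus had to hold at least 200 detected genes, at least 10 UMIs of Ttn, which encodes the giant sarcomeric protein titin, and 0 UMIs of Dcn, Pdgfra, Fbn1, Mrc1, F13a1, Pparg, Acvr1c, Flt1 and Notch3, which mark other cell types. This gave 1541 nuclei of 18040 in all, 1366 from the PTRF KO library and 175 from the WT library. Without the Nr4a minimum the same filters kept 14175 nuclei, called eligible here, 5340 in PTRF KO and 8835 in WT. The nuclei came from quadriceps muscle of C57BL/6N mice aged 3 months, either PTRF KO or WT, with 1 library per genotype, prepared by detergent lysis and Dounce homogenisation and captured on the 10x Genomics platform. PTRF is the older name of Cavin1, a coat protein that caveolae need. How many mice gave each library, and of which sex, is not stated in the labels. With 1 library per genotype no difference has a replicate check and no test was made: nuclei of 1 library share their source, and all intervals are exact 95% intervals that cover counting error only.

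The 3 Nr4a genes encode orphan nuclear receptors that are switched on within a short time of a stimulus and need no classical ligand. In skeletal muscle they are known as early response genes to exercise, beta-adrenergic signalling and cAMP, and Nr4a1 and Nr4a3 are linked to glucose and lipid use and to oxidative capacity. Early response genes such as Fos and Egr1 share part of this control through the transcription factor CREB, which binds the cAMP response element (CRE).

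The promoters of the 3 genes that chose the nuclei are shown because their messages define the group. RefSeq sequence of GRCm38.p6 is given for the 250 bases before each annotated start, on the strand of the gene. The windows are chr15:101266596-101266845 (plus strand) for Nr4a1, chr2:57124004-57124253 (minus strand) for Nr4a2 and chr4:48045055-48045304 (plus strand) for Nr4a3. GENCODE M21 places the genes at chr15:101254269-101274795, chr2:57106830-57124003 and chr4:48045153-48086447, so the Nr4a1 window lies inside the longest annotated gene body and the Nr4a3 window overlaps its start. Capitals mark TGACG or its reverse complement CGTCA, the shorter form of the CRE.

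Nr4a1: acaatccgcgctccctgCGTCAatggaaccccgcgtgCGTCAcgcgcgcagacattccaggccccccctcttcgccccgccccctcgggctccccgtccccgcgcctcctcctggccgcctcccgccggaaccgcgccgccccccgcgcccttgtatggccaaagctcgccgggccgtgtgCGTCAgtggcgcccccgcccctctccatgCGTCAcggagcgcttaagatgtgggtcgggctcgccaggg
Nr4a2: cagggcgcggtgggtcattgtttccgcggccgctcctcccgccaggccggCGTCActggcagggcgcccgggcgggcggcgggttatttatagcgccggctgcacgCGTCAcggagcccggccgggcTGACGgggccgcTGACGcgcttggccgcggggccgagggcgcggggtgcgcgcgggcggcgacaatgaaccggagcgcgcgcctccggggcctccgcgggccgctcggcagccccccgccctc
Nr4a3: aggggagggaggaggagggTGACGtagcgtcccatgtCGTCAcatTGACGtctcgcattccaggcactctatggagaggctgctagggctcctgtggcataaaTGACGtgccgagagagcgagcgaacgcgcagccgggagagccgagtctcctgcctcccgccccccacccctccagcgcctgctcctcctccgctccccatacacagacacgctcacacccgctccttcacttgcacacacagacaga

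Each of the 3 windows held 4 such motifs, counted on both strands, and 0 copies of the full palindrome TGACGTCA, which holds both forms within itself. Among 32851 promoters of the same length, 17.8% held at least 1 short motif and 0.137%, or 45 promoters, held at least 4. The window of Fos held 2, those of Fosb, Atf3 and Klf4 held 1 each, and that of Irs2 held 0. A match describes the letters of the window only.

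The targeted gene was read first. Cavin1 had 2 UMIs in the whole PTRF KO library and 75 in the whole WT library, and 0 and 1 UMI in their Nr4a-high nuclei. The libraries differed in depth, with a median of 1562 UMIs per nucleus in PTRF KO and 703 in WT. The PTRF KO library held nuclei with Y-linked UMIs and no Xist (Y-marked) and nuclei with Xist and no Y-linked UMIs (Xist-marked). Among its Nr4a-high nuclei 784 were Y-marked, 148 Xist-marked and 401 neither, and 33 held both kinds. WT Nr4a-high nuclei were 76 Y-marked, 0 Xist-marked and 99 neither. The 2 libraries shared 24 cell barcodes, carried by 3 PTRF KO and 0 WT Nr4a-high nuclei.

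Nr4a-high nuclei made up 25.6% of eligible nuclei in PTRF KO (24.4 to 26.8) and 1.98% in WT (1.70 to 2.29). The share rests on the counts that chose the group, and it was larger in deeper nuclei of both libraries, so values at like depth are given too. Among nuclei with 1000 to 3000 UMIs it was 24.0% of 3227 in PTRF KO and 3.72% of 2234 in WT. After thinning each nucleus to 1000 UMIs it was 12.4% of 4448 in PTRF KO and 2.02% of 2478 in WT, with 16.7% of PTRF KO and 72.0% of WT eligible nuclei too shallow to enter. Intervals of the 2 libraries did not overlap in any depth class but the deepest. There, at 5000 UMIs or more, the share was 47.2% in PTRF KO (41.8 to 52.7) and 34.3% in WT (19.1 to 52.2), the WT value resting on 12 of 35 nuclei.

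**Figure D1:**
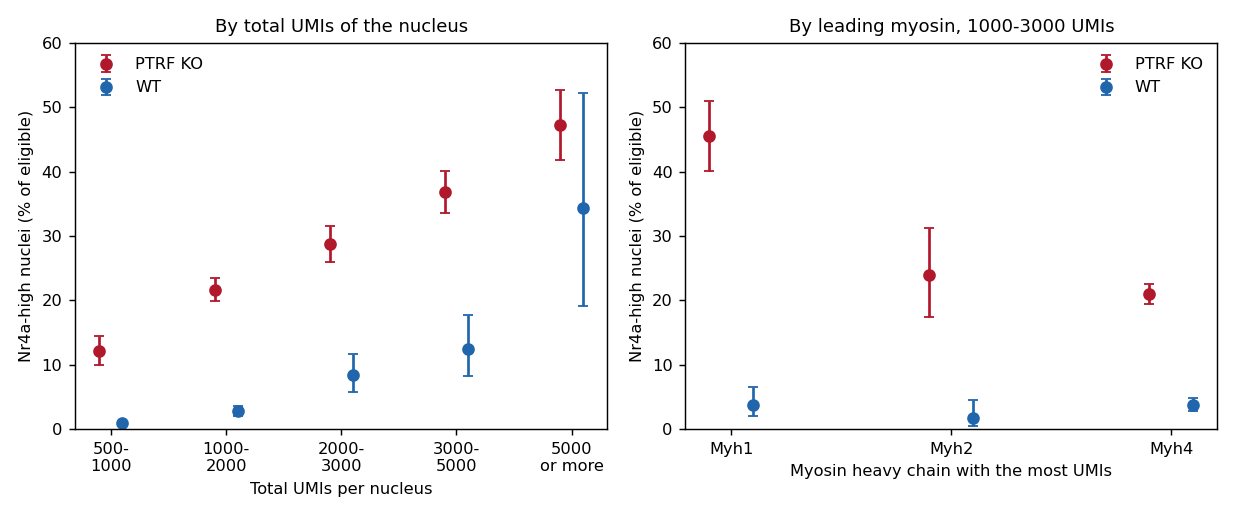
Share of eligible nuclei that were Nr4a-high (vertical axis, %) by total UMIs of the nucleus (left) and, at 1000 to 3000 UMIs, by the myosin heavy chain with the most UMIs (right), for PTRF KO (red) and WT (blue). Points are shares and bars exact 95% intervals; in PTRF KO the share reached 45.5% in nuclei led by Myh1, against 20.9% in those led by Myh4.

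Free RNA in droplets gives stray UMIs, so nuclei of other types were read at the same 1000 to 3000 UMIs. At least 2 Nr4a UMIs were held by 3.70% of 108 PTRF KO nuclei with fibro-adipogenic markers, by 6.45% of 31 with macrophage markers and by 6.90% of 377 with adipocyte markers. Their median totals were 1510, 1399 and 1782 UMIs, against 1657 in eligible PTRF KO nuclei. In WT 0 of 21 nuclei with adipocyte markers held 2 Nr4a UMIs (interval up to 16.1%). The PTRF KO share of 24.0% lay above these other types of its own library. For the WT share of 3.72%, the 21 WT nuclei were too few to set a background. The PTRF KO values come from another library and cannot stand in for it. Whether these other types make Nr4a messages themselves, and the part of free RNA in the WT group, was not tested.

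By fibre type the nuclei were unevenly spread in PTRF KO. Each nucleus was assigned to the adult myosin heavy chain with the most UMIs: Myh1 is the type IIx isoform, Myh2 the IIa, Myh4 the fastest IIb and Myh7 the slow one. At 1000 to 3000 UMIs, 45.5% of PTRF KO nuclei led by Myh1 were Nr4a-high (40.0 to 51.0), against 23.9% of those led by Myh2 and 20.9% of those led by Myh4 (19.4 to 22.6). In WT the shares were 3.85%, 1.81% and 3.77%, with overlapping intervals. Y-marked and Xist-marked PTRF KO nuclei had similar shares, 25.9% and 26.2%. Within those led by Myh1 the share was 57.7% of 137 Y-marked and 42.4% of 59 Xist-marked nuclei, with overlapping intervals.

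Nr4a1 supplied most of the counted UMIs. PTRF KO Nr4a-high nuclei held 3439 UMIs of Nr4a1 in 1290 nuclei, 162 of Nr4a2 in 123 nuclei and 1206 of Nr4a3 in 467 nuclei. WT Nr4a-high nuclei held 407 UMIs of Nr4a1 in 171 nuclei, 6 of Nr4a2 in 6 nuclei and 23 of Nr4a3 in 11 nuclei. Nr4a1 alone was seen in 60.4% of PTRF KO and 90.3% of WT Nr4a-high nuclei, and Nr4a1 with Nr4a3 but not Nr4a2 in 26.1% of PTRF KO and 4% of WT ones. The nuclei were chosen by these very counts, so the values are a description.

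Most nuclei sat close to the minimum of 2 UMIs. Exactly 2 were held by 46.0% of PTRF KO and 68% of WT Nr4a-high nuclei, and the highest sums in a nucleus were 25 in PTRF KO and 7 in WT. Of the 46 PTRF KO nuclei with 10 or more, 45 held Nr4a3, 40 were Y-marked and 0 were Xist-marked. Just outside the minimum, 1355 PTRF KO and 831 WT eligible nuclei held 1 Nr4a UMI, with median totals of 1750 and 967 UMIs. Those with exactly 2 had median totals of 1909 UMIs in PTRF KO and 1313 in WT.

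**Figure D2:**
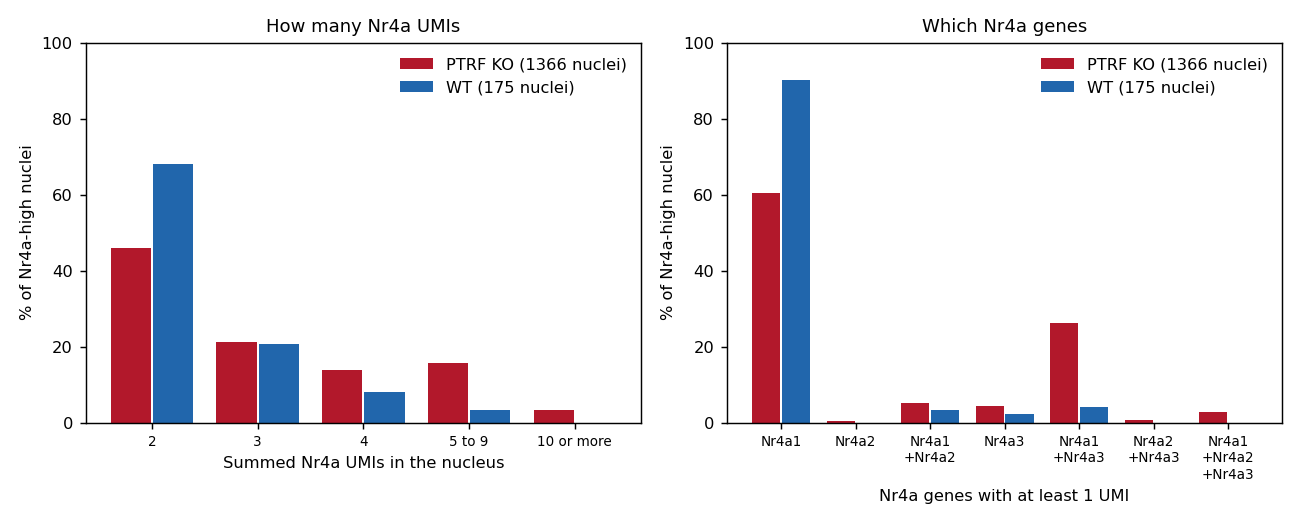
Percent of Nr4a-high nuclei (vertical axis) by summed Nr4a UMIs (left) and by which Nr4a genes had at least 1 UMI (right), PTRF KO in red and WT in blue. Nr4a3 was seen with Nr4a1 but not Nr4a2 in 26.1% of PTRF KO and 4% of WT nuclei.

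Nr4a3 differed between Y-marked and Xist-marked nuclei of the PTRF KO library more than Nr4a1 did. Over all eligible nuclei, Nr4a3 stood at 126 UMIs per 1000000 UMIs of the set (CPM) in Y-marked nuclei (118 to 134) and 32.1 CPM in Xist-marked nuclei (22.3 to 44.6). Nr4a1 stood at 354 CPM in Y-marked and 476 CPM in Xist-marked nuclei. In WT, Y-marked nuclei held Nr4a3 at 5.29 CPM and Nr4a1 at 149 CPM. Nr4a1 was therefore higher in Y-marked and in Xist-marked PTRF KO nuclei than in Y-marked WT nuclei. PTRF KO Nr4a3 was lower in Xist-marked than in Y-marked nuclei, though still above its level in Y-marked WT nuclei. WT had only 2 eligible Xist-marked nuclei, so no WT level stands beside the Xist-marked one. Sex cannot be told apart from mouse here, since the number of mice is not given.

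For expression of other genes, each Nr4a-high nucleus was paired with an eligible nucleus of its library with 0 Nr4a UMIs and a total within 10%. Pairs were found for 1322 of 1366 PTRF KO and 174 of 175 WT nuclei. UMIs were summed per set and compared as log2 ratios of CPM after adding 0.5 UMI, and a gene with at least 50 UMIs over both sets was counted as higher or lower when past 1.5-fold. Of 7496 such genes in PTRF KO, 449 (5.99%) were higher and 253 (3.38%) lower in Nr4a-high nuclei, and for 109 and 23 of them the whole interval lay past 1.5-fold. With comparators of the same leading myosin, 281 were higher. In WT, of 2069 genes, 116 (5.61%) were higher and 90 (4.35%) lower, with whole intervals past 1.5-fold for 6 and 4. The median log2 ratio of all genes was -0.01 in each library. A rare message could reach 50 UMIs through the set in which it was higher, so counts and medians over the genes of a list that reached it are descriptions of those genes alone.

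The label held in that the nuclei were myonuclei. The 7 general myonuclear markers together stood at 40198 CPM in Nr4a-high and 38516 CPM in matched nuclei of PTRF KO, and at 35139 and 34384 CPM in WT. Markers of other types outside the rule were low in both PTRF KO sets: 16 against 17 UMIs for 4 macrophage genes, 82 against 83 for 4 adipocyte genes, 111 against 116 for 4 blood endothelial genes, 7 against 7 for 4 mural genes, and 6 against 6 for 4 tenocyte genes, with Tnmd and Scx at 0. Satellite cell markers had 21 and 18 UMIs, with Chodl and Vcam1 at 0 in both. Lymphatic endothelial markers had 28 and 31, those of T or NK cells 27 and 16, those of B cells 132 and 123, and those of Schwann cells 32 and 35. Of the fibro-adipogenic list, 3193 and 2948 UMIs were almost all Lama2 (3182 and 2926), which myonuclei here also held. Markers of the neuromuscular junction had 801 and 957 UMIs, and those of the myotendinous junction 400 and 287. In WT the fibro-adipogenic list had 52 UMIs in Nr4a-high nuclei, all of them Lama2, and 17 in matched nuclei, 12 of them Lama2. WT macrophage markers had 6 and 3 UMIs, lymphatic endothelial markers 3 and 11, blood endothelial markers 18 and 16, adipocyte markers 10 and 11, and B cell markers 29 and 32. The part of these markers in the gene differences was not tested.

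Of 32 early response genes, 6 were past 1.5-fold higher in PTRF KO Nr4a-high nuclei and 0 lower. Only 13 of the 32 had enough UMIs, with a median log2 ratio of 0.56, and over all genes tested 5.99% were higher and 3.38% lower. Fos, Egr1 and Atf3 reached the minimum mainly through the Nr4a-high set. The 6 were Fos, Egr1, Atf3, Btg2, Mafk and Cebpb. Fos, a subunit of the AP-1 transcription factor, had 81 UMIs in 65 Nr4a-high nuclei, against 14 UMIs in 14 matched nuclei (log2 ratio 2.42, interval 1.64 to 3.40). Egr1, a zinc-finger factor, had 61 UMIs in 44 nuclei, against 11 UMIs in 10 (2.35, interval 1.47 to 3.48). Both were rare messages seen in few nuclei.

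Atf3, a stress-induced factor of the CREB family, had 79 UMIs in 35 Nr4a-high nuclei, 12 of them in 1 nucleus, against 12 UMIs in 12 matched nuclei (2.60, interval 1.77 to 3.66). Its direction depended on the matching: with comparators of the same leading myosin the log2 ratio was -0.17, and within nuclei led by Myh1 5 UMIs stood against 35. Fosb had 39 UMIs in Nr4a-high and 2 in matched nuclei, and Klf4, a Krüppel-like factor, had 16 and 0, both under the minimum of 50. Jun, Fosl2, Klf10, Rcan1, Dusp1, Klf6 and Nfil3 had log2 ratios between 0.03 and 0.56. The list thus ranged from large ratios at Fos and Egr1 to none at Fosl2.

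In WT, 0 of these 32 genes reached 50 UMIs. Fos had 10 UMIs in Nr4a-high and 1 in matched nuclei, Atf3 had 8 and 3, Dusp1, a MAP kinase phosphatase, had 13 and 4, Jun had 14 and 6, and Egr1 had 0 and 0. These WT counts were too low to say whether the ratios differed from those in PTRF KO.

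Irs2, which couples the insulin receptor to its kinases and is a known CREB target, was among the genes with the clearest difference. It had 770 UMIs in 420 PTRF KO Nr4a-high nuclei, or 215 CPM, against 249 UMIs in 168 matched nuclei, or 72.8 CPM (log2 ratio 1.56, interval 1.35 to 1.77). In WT it had 23 UMIs against 8 (1.46, interval 0.30 to 2.89). By Nr4a count at 1000 to 3000 total UMIs, WT Irs2 showed no such rise, but few nuclei were behind the values. It stood at 53.5 CPM with 0 Nr4a UMIs, at 47.8 CPM with 2 (58 nuclei) and at 22.1 CPM with 3 or 4. The last value came from 24 nuclei and 1 Irs2 UMI. Of the 20 insulin and Igf1 signalling genes, 18 had enough UMIs in PTRF KO, with a median of 0.19. Among these 3 were higher and 0 lower, against 5.99% and 3.38% over all genes. The other 2 were Tbc1d1, which holds back glucose transporter traffic, at 707 CPM against 349 (1.02), and Grb14, an inhibitor of the insulin receptor, at 52.2 against 26.9 (0.95). In pairs led by Myh1, Tbc1d1 stood at -0.021 and Grb14 at -0.35. Tbc1d1 ran the other way in WT, at 333 CPM in Nr4a-high and 434 in matched nuclei (-0.38, interval -0.74 to -0.03).

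Of 18 genes of the CREB and cAMP list, 17 had enough UMIs in PTRF KO, with a median of -0.02. Among them 3 were higher and 0 lower, against 5.99% and 3.38% over all genes. Beside Irs2 these were Sik1, a salt-inducible kinase, with 77 UMIs against 33 (1.14), and Ppargc1a, the coactivator of mitochondrial genes, at 443 CPM against 228 (0.96, interval 0.83 to 1.08). Ppargc1a in WT stood at 288 CPM in Nr4a-high and 377 in matched nuclei (-0.39, interval -0.78 to -0.01). The median of the whole list was close to that of all genes, and its members ran both ways. Of the 17, intervals lay above 0 for 5 and below 0 for 4.

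Genes of glucose and lipid use that Nr4a receptors are linked to were mixed. Of 25 listed, 22 had enough UMIs in PTRF KO, with a median of 0.16. Among them 5 were higher and 0 lower, against 5.99% and 3.38% over all genes. The 5 were Cd36, the fatty acid transporter (456 CPM against 247, log2 ratio 0.88), Hk2, which traps glucose (214 against 126, 0.76), Ppargc1b (336 against 215, 0.64), Lpl, lipoprotein lipase (145 against 93.3, 0.64), and Pdk2, a pyruvate dehydrogenase kinase (24.0 against 15.5, 0.63). In pairs led by Myh1 the direction of Cd36 (-0.24) and Lpl (-0.66) turned. Gys1, glycogen synthase, was just within 1.5-fold at 339 CPM against 226 (0.58). Prkag3, the glycolytic-fibre subunit of AMP kinase (-0.53), and Pfkfb3 (-0.46) stood lower but within 1.5-fold.

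In WT, 17 of the 25 had enough UMIs, with a median of 0.26. There 3 were higher and 0 lower, against 5.61% and 4.35% over all WT genes tested. Ucp3, a mitochondrial carrier of fatty-acid-burning muscle, had 49 UMIs in Nr4a-high and 17 in matched nuclei (1.49), Ldha, lactate dehydrogenase, had 36 and 17 (1.05), and Ppargc1b had 114 and 64 (0.82). Ppargc1b was the metabolic gene past 1.5-fold in each library, Ucp3 and Ldha stood at 0.23 and -0.08 in PTRF KO, and Cd36 was lower in WT Nr4a-high nuclei (-0.42, interval -0.72 to -0.13).

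Of the sarcomere genes, Myh1, Actn2 and Mybpc1 were past 1.5-fold higher in PTRF KO Nr4a-high nuclei, and Myh7 was lower. Myh1 had 1894 UMIs in 348 PTRF KO Nr4a-high nuclei, or 529 CPM, against 645 UMIs in 165 matched nuclei, or 189 CPM (1.49, interval 1.36 to 1.62). Actn2, a Z-disc alpha-actinin, stood at 1201 CPM against 442 (1.44, interval 1.36 to 1.53). Mybpc1, slow myosin-binding protein C, stood at 1225 CPM against 577 (1.09, interval 1.01 to 1.16). In pairs led by Myh1, Actn2 stood at -0.046 and Mybpc1 at -0.19. Nuclei led by Myh1 made up 17.7% of paired Nr4a-high and 5.37% of matched PTRF KO nuclei. Of the myosin heavy chain UMIs, Myh1 held 19.2% in Nr4a-high and 6.47% in matched nuclei, Myh4 74.5% and 87.1%, Myh2 6.24% and 5.44%, and Myh7 0.0812% and 0.964%. PTRF KO Nr4a-high nuclei thus held a larger share of Myh1 and smaller shares of Myh4 and Myh7.

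Of the 20 Z-disc and stretch genes, 17 had enough UMIs, with a median of 0.20. Here 5 were higher and 0 lower, against 5.99% and 3.38% over all genes. Beside Actn2 they included Xirp1, which gathers at damaged or remodelling Z-discs, with 55 UMIs against 18 (1.52), Fhl1, a LIM-domain protein, with 686 against 279 (1.23), and Ankrd2, a titin-binding stretch sensor, with 144 against 62 (1.14, and -0.063 in pairs led by Myh1). Ank2, a membrane scaffold, had 9488 UMIs in 965 nuclei, or 2649 CPM, against 3437 UMIs in 584 nuclei, or 1005 CPM (1.40, interval 1.34 to 1.46). Ank2 overlaps 14 annotated genes on its own strand, so part of its UMIs is of uncertain origin.

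Other ranked genes on the higher side were Kctd16, an auxiliary subunit of GABA-B receptors, with 452 UMIs in 208 nuclei against 106 in 60 (2.02), Sntg2, a syntrophin, with 185 against 39 (2.16), and Ccdc85a with 594 against 152 (1.90). Thsd7b had 97 UMIs against 11, but 58 of the 97 lay in 1 nucleus. Kcnh7, a potassium channel, had 329 UMIs in 28 nuclei, 76 of them in 1 nucleus, against 98 in 11. Without the nucleus richest in each gene, all 12 ranked higher genes kept their direction past 1.5-fold, with Thsd7b at 2.33. Kcnh7 turned to -1.46 in nuclei with at least 4 Nr4a UMIs.

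Secreted factors included both directions. Of 18 growth factor and myokine genes, 10 had enough UMIs in PTRF KO, with a median of 0.02. Here 4 were higher and 3 lower, against 5.99% and 3.38% over all genes. The 4 higher ones were Il15 (105 CPM against 45.0, log2 ratio 1.22, and -0.14 in pairs led by Myh1), Fgf1 (133 against 61.7, 1.10), Vegfa, the angiogenic factor (541 against 261, 1.05), and Bdnf, with 55 UMIs against 28 (0.90). Trim63, the atrophy ligase MuRF1, stood at 1106 CPM against 549 (1.01, interval 0.93 to 1.09), and Rcan2, a calcineurin regulator, at 450 against 223 (1.01), but at -0.32 in pairs led by Myh1. Mstn, the growth-limiting myokine, had 50 UMIs against 74 (-0.63).

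Other listed groups held few genes past 1.5-fold in PTRF KO, where the share over all genes was 5.99% higher and 3.38% lower; with lists this small, counts of 1 or 2 lie near it. Of 19 clock genes, 17 had enough UMIs, and 2 were higher, among them the repressor Bhlhe40 with 349 UMIs against 205 (0.70), with a median of 0.00 over the list. Of 22 denervation and regeneration genes, 9 had enough UMIs, 2 were higher and 1 lower: Xirp1, Dach2, a factor induced by denervation, with 63 against 27 (1.14), and Ncam1, an adhesion molecule of denervated fibres, with 81 against 149 (-0.94). Dach2 and Ncam1 ran the other way in WT, from 15 against 32 and 11 against 4 UMIs. Ncam1 stood at 0.47 in PTRF KO nuclei with at least 4 Nr4a UMIs, and Dach2 at -0.0074 in pairs led by Myh1.

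Of 12 heat shock genes, 8 had enough UMIs and 1 was higher, Hspb7, a small heat shock protein, with 35 UMIs against 19 (0.80), and the median was 0.36. With comparators of the same leading myosin Hspb7 stood at -0.0074, so that call was lost. Of 19 calcineurin and calcium genes, 17 had enough UMIs and 1, Rcan2, was higher, with a median of 0.09. Of 14 glucocorticoid-responsive genes, 10 had enough UMIs and 0 were past 1.5-fold in either direction; Per1 stood at 0.46, Zbtb16 at 0.43, Sgk1 at -0.43 and Fkbp5 at -0.58. Of 15 atrophy and autophagy genes, 14 had enough UMIs, with 2 higher, Trim63 and Fbxo31 (0.61), and 2 lower, Mstn and Map1lc3b (-0.59), and a median of 0.04. Of 17 further genes of fast and slow fibres, 11 had enough UMIs, 1 was higher and 2 lower, with a median of -0.27.

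Of 10 genes that an earlier analysis of these data ranked highest in PTRF KO myonuclei, all 10 had enough UMIs. In Nr4a-high over matched nuclei 0 were higher and 1, Sorcs1, lower, against 5.99% and 3.38% over all genes. Irs1, another insulin receptor substrate, stood at 1051 CPM against 1263 (-0.27), Pcdh7, a protocadherin, at 516 against 669 (-0.37), and the median was -0.28. Of 11 ranked lowest, only Arrdc2 had enough UMIs, with 58 against 45 (0.30).

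Of 12 caveola genes listed, 5 had enough UMIs in PTRF KO, where 5.99% of all genes were higher. The 2 past 1.5-fold higher were Ehd4, a neck ATPase, with 103 UMIs against 60 (0.71, and -0.41 in pairs led by Myh1), and Cav3, the muscle caveolin, with 92 against 57 (0.62). Cavin4, the muscle cavin, had 138 against 88 (0.58) and did not pass. In WT these 3 genes had 9 against 7, 8 against 10 and 18 against 15 UMIs.

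Slow-fibre genes were among those ranked lowest in PTRF KO, with few nuclei behind them. Myh7 had 8 UMIs in 3 Nr4a-high nuclei, against 96 UMIs in 9 matched nuclei (-3.57, interval -4.90 to -2.62). Atp2a2, the slow-fibre calcium pump, had 27 UMIs against 224, of which 68 lay in 1 nucleus (-3.10). Tpm3, slow tropomyosin, had 55 against 163 (-1.63), but stood at 0.020 in nuclei with at least 4 Nr4a UMIs. Slow fibres were rare throughout: 9 matched and 1 paired Nr4a-high nucleus were led by Myh7.

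Sorcs1, a sorting receptor of the VPS10 family, had the most UMIs among the ranked lower genes, 1193 in 202 Nr4a-high nuclei, or 333 CPM, against 2302 in 408 matched nuclei, or 673 CPM (-1.01, interval -1.12 to -0.91). It was lower in WT as well, with 15 UMIs against 43 (-1.497, interval -2.48 to -0.65). Pld5 had 145 against 342 (-1.30) and Htra4, a secreted protease, 15 against 55 (-1.91). Dclk1, Nrg3 and Ano4 ranked high on this side through single matched nuclei that held 50 of 58, 54 of 63 and 44 of 95 UMIs, and Ano4 ran the other way in WT, with 18 UMIs against 2. Without the richest nucleus of each set, Nrg3 had 7 against 9 UMIs (-0.41), and the other 11 ranked lower genes stayed past 1.5-fold. In WT, 7 of the 12 ranked higher genes had at least 20 UMIs, of which 2, Irs2 and Ank2, had the same direction and 1 was past 1.5-fold. Of the 4 ranked lower genes with as many, 2 had the same direction and 1 was past 1.5-fold.

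**Figure D3:**
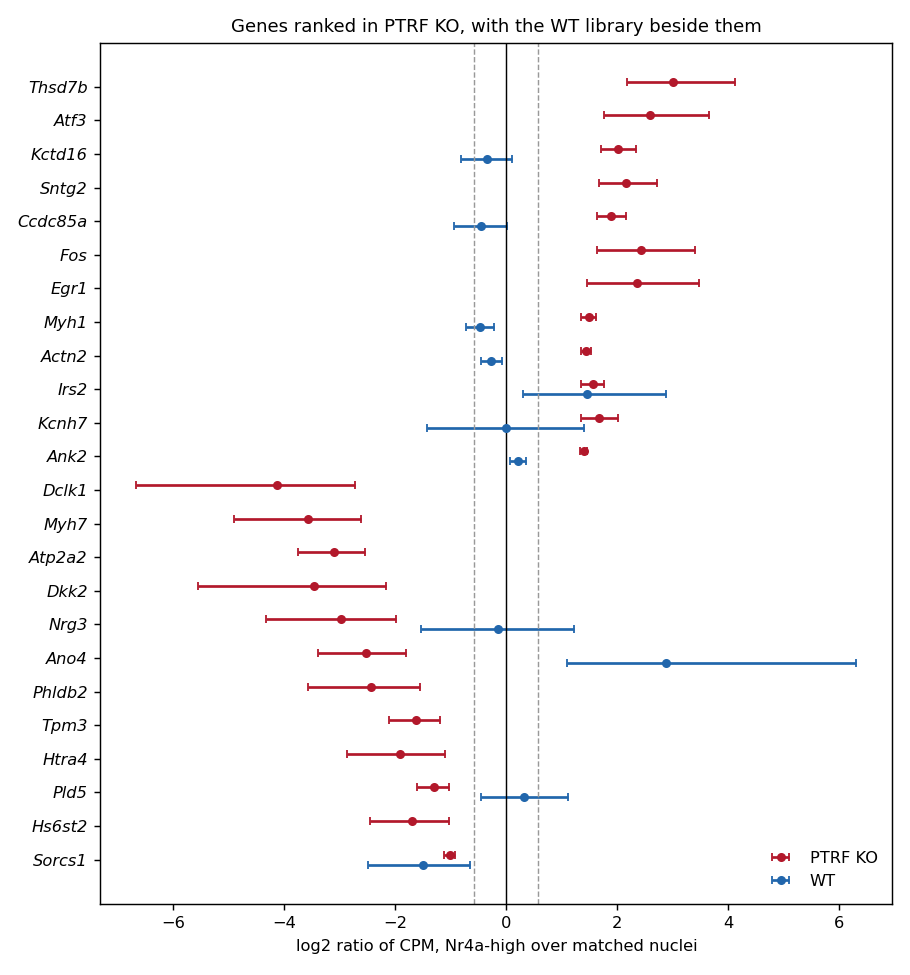
Log2 ratio of CPM in Nr4a-high over matched nuclei (horizontal axis) for the 12 highest and 12 lowest ranked genes of PTRF KO (red), with WT (blue) where the gene had at least 20 UMIs there and a finite interval; bars are exact 95% intervals and dashed lines 1.5-fold. Of the 7 higher genes drawn for WT, 2 lay on the same side as in PTRF KO, and of the 4 lower ones 2 did.

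Levels of several genes followed the number of Nr4a UMIs in PTRF KO, mostly in steps, while others did not. In nuclei with 1000 to 3000 total UMIs and 0, 1, 2, 3 or 4, and 5 or more Nr4a UMIs, Irs2 stood at 85.5, 119, 180, 273 and 440 CPM. Ank2 stood at 1223, 1757, 2434, 3085 and 4662 CPM, and Actn2 at 544, 823, 1113, 1332 and 2819 CPM. Sorcs1 ran the other way, at 570, 448, 331, 134 and 57.6 CPM, as did Myh4, at 2561, 2331, 2046, 1919 and 1613 CPM. Fos stood at 6.41, 14.6, 13.9, 26.8 and 74.1 CPM, from 80 UMIs in all. Atf3 showed no such steps, at 19.2, 11.8, 9.70, 16.5 and 119 CPM, nor did Btg2, at 6.41, 7.62, 4.16, 6.20 and 45.3 CPM. For both, the clear rise came only with 5 or more Nr4a UMIs, from 29 UMIs of Atf3 and 11 of Btg2. The groups held 1640, 814, 401, 255 and 117 nuclei, with median totals between 1582 and 2170 UMIs. All of these genes but Myh4 and Btg2 had been ranked in nuclei of this library, so their direction is a description. Over all eligible PTRF KO nuclei the share led by Myh1 also rose. It was 6.22% with 0 Nr4a UMIs, 10.0% with 1, 14.6% with 2 and 39.1% with 10 or more. In pairs led by Myh1, Actn2 and Ank2 stood at -0.046 and -0.016. The part of fibre type in the steps was not tested.

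In WT the groups with 0, 1, 2, and 3 or 4 Nr4a UMIs held 1821, 330, 58 and 24 nuclei. The last 2 groups were too small to tell a step from none. Irs2 stood at 53.5, 53.0, 47.8 and 22.1 CPM, the last from 1 Irs2 UMI. Actn2 stood at 1250, 1165, 946 and 1567 CPM, the last with an interval of 1223 to 1976. Ank2 was higher at each step, at 2045, 2242, 2618 and 4060 CPM. The WT nuclei without Nr4a UMIs already stood above those of PTRF KO for Actn2 (1250 against 544 CPM in PTRF KO), Ank2 (2045 against 1223) and Kctd16 (197 against 49.8). The highest PTRF KO step of each of these 3 genes lay above that WT level.

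**Figure D4:**
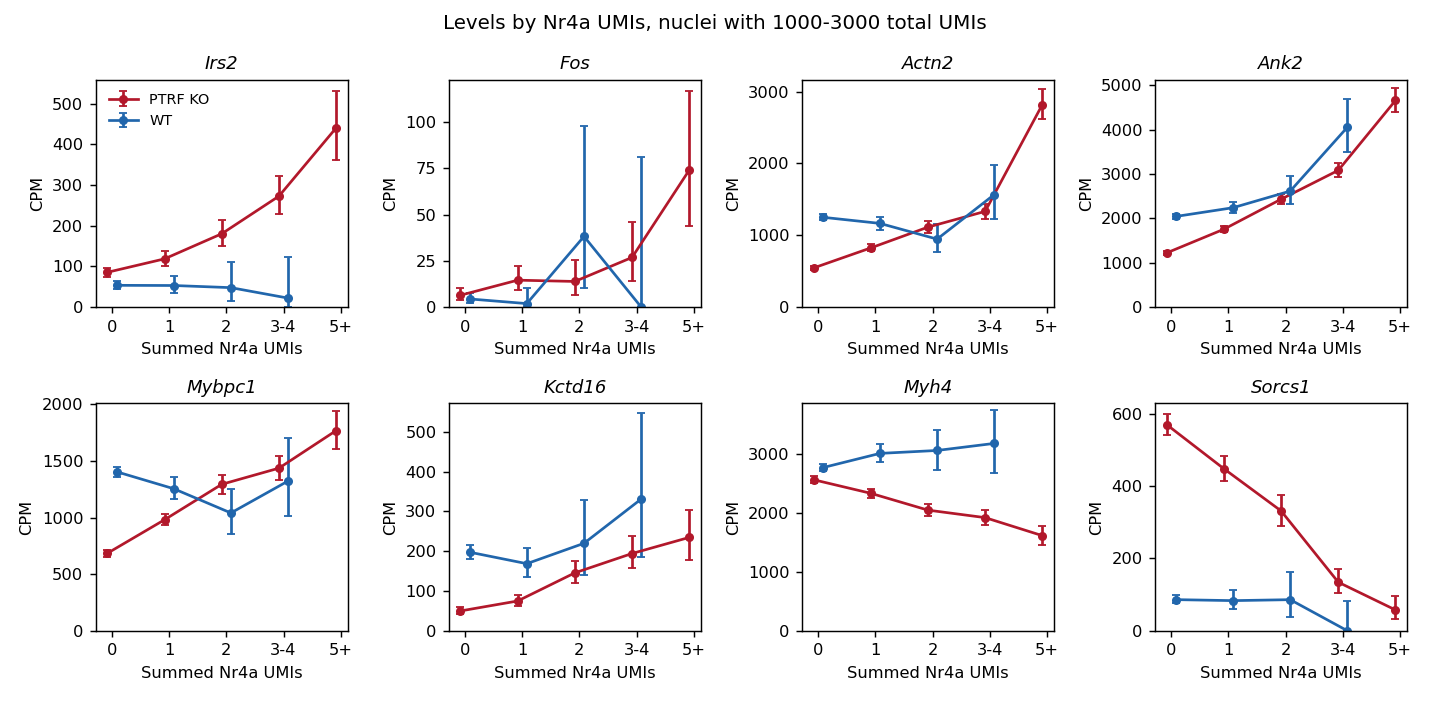
Level of 8 genes (vertical axes, CPM) in nuclei with 1000 to 3000 total UMIs by summed Nr4a UMIs (horizontal axes), PTRF KO in red and WT in blue; bars are exact 95% intervals, and WT had too few nuclei with 5 or more Nr4a UMIs to plot. Irs2 reached 440 CPM and Sorcs1 was down to 57.6 CPM in PTRF KO nuclei with 5 or more.

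Much of the PTRF KO difference lay in nuclei led by Myh4. Among 974 pairs led by Myh4, 11 of the 12 ranked higher genes had at least 20 UMIs, and all 11 were past 1.5-fold higher (background 5.41% of genes). The ranking used mostly the same nuclei, 953 of its 1322 paired Nr4a-high nuclei being led by Myh4. This count is therefore a description and no independent check. Actn2 stood at 599 CPM in Nr4a-high and 104 CPM in matched nuclei (2.53), Ank2 at 1654 and 428 (1.95), and Irs2 at 151 and 46.9 (1.69). Mybpc1, named from the fibre-type list, stood at 623 and 165 CPM (1.91). Among 134 pairs led by Myh1, 9 of the 12 had enough UMIs, 5 had the same direction and 3, Thsd7b, Kctd16 and Sntg2, passed 1.5-fold (background 5.14%), with 134 of the 242 nuclei paired. There Actn2 stood at 2674 CPM in Nr4a-high and 2760 CPM in matched nuclei (-0.046, interval -0.20 to 0.11), Irs2 at 335 and 326 (0.038), and Ank2 at 5613 and 5675 (-0.016). Kctd16 kept its direction in Myh1-led pairs, at 316 against 125 CPM (1.32, interval 0.71 to 1.99). Matched nuclei led by Myh1 thus already had levels of Actn2, Ank2 and Irs2 above those of the Nr4a-high nuclei led by Myh4.

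The ratios were also read within Y-marked and within Xist-marked pairs of the PTRF KO library. Among 755 Y-marked pairs all 12 ranked higher genes were past 1.5-fold higher (background 6.04%), and among 131 Xist-marked pairs 6 genes had enough UMIs, all 6 higher and 4 past 1.5-fold (background 4.86%). These subsets hold nuclei of the main comparison and are no independent check. Irs2 had log2 ratios of 1.67 in Y-marked and 1.33 in Xist-marked pairs. Actn2 had 1.65 in Y-marked and 0.061 in Xist-marked pairs (interval -0.21 to 0.34), but 1.54 in the 79 Xist-marked pairs led by Myh4. The fibre mix differed too: Myh1 led 17.1% of Y-marked and 23.6% of Xist-marked Nr4a-high nuclei, and Myh2 led 3.70% and 10.8%. The marks cannot be told apart from the mice they came from, whose number is not given.

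**Figure D5:**
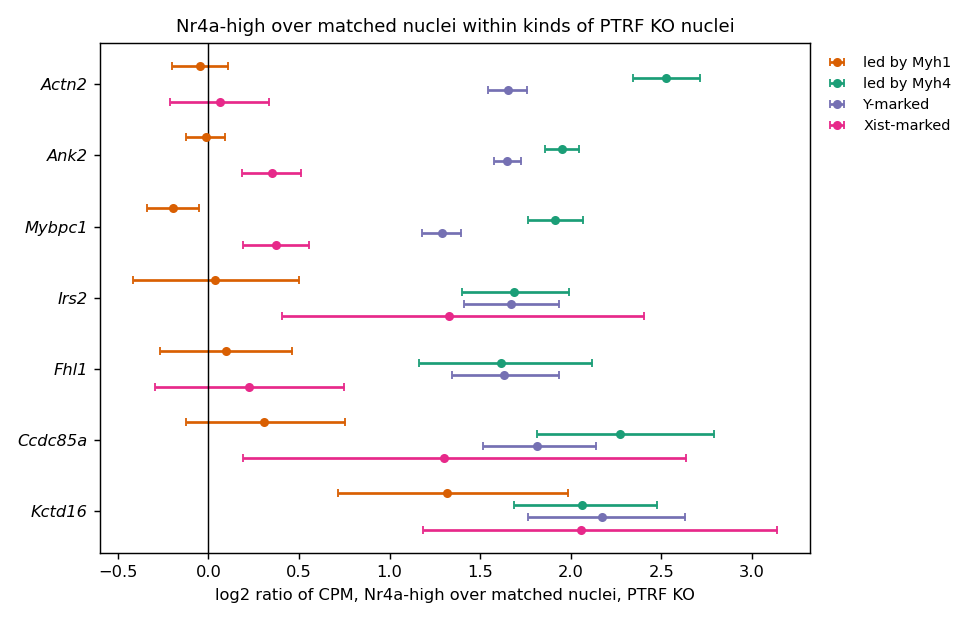
Log2 ratio of CPM in Nr4a-high over matched nuclei of PTRF KO (horizontal axis) for 7 genes, within nuclei led by Myh1 or Myh4 and within Y-marked or Xist-marked nuclei; bars are exact 95% intervals. Actn2, Ank2 and Irs2 lay near 0 among nuclei led by Myh1 and at 2.53, 1.95 and 1.69 among those led by Myh4.

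PTRF KO Nr4a-high nuclei with Nr4a3 differed from those without. Of the 467 with Nr4a3, 27.4% were led by Myh1, against 12.7% of the 899 without. Irs2 stood at 389 CPM with Nr4a3 and 125 CPM without (1.63), Actn2 at 2164 and 720 (1.59), and Ank2 at 4306 and 1718 (1.33). Egr1 had 41 UMIs with Nr4a3 and 26 without (1.53), Sorcs1 115 and 1177 (-2.46). Median totals were 2380 UMIs with Nr4a3 and 2250 without. Kctd16 differed least among these, at 156 and 111 CPM (0.49). The median Nr4a sum was 4 with Nr4a3 and 2 without. Xist-marked nuclei were 24 of the 467 and 124 of the 899. The parts of the Nr4a sum, fibre type and sex marks in these ratios were not tested.

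Nr4a-high nuclei of WT showed another set of genes. Those ranked highest were Lama2, a basement membrane laminin, with 52 UMIs against 12 (2.06), Acvr2b, an activin and myostatin receptor, with 46 against 12 (1.89), Ucp3, and Pdlim7, a Z-disc adaptor, with 79 against 35 (1.16). Lama2 lost its direction with comparators of the same leading myosin (-0.17), and Acvr2b and Pdlim7 stood at -0.20 and -0.12 in PTRF KO. On the lower side were Cep85l, with 130 UMIs against 292 (-1.17), Mybpc1, at 1125 CPM against 1999 (-0.83), Myh2, with 136 UMIs against 246 (-0.86), and Fhl1, with 44 against 91 (-1.05). Of WT myosin heavy chain UMIs, Myh4 held 76.6% in Nr4a-high and 63.5% in matched nuclei, Myh1 14.8% and 20.6%, and Myh2 8.52% and 15.6%. The Nr4a-high nuclei of WT thus held a larger share of Myh4 than matched nuclei, where those of PTRF KO held a larger share of Myh1.

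Few genes were past 1.5-fold the same way in both libraries. Of 2069 genes with enough UMIs in each, 7 were past 1.5-fold higher in both and 5 lower in both, while 11 were higher in PTRF KO and lower in WT and 0 the reverse. Of the 92 genes higher in PTRF KO, 7 were also higher in WT, and of the 14 lower, 5 were also lower. Over all 2069 genes, 116 (5.61%) were higher and 90 (4.35%) lower in WT. The 2 comparisons share no nuclei, but with 1 library each the difference between them was not tested.

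Between the genotypes, Nr4a-high nuclei of PTRF KO and WT differed at more genes: of 6062 tested, 953 (15.7%) were past 1.5-fold higher and 876 (14.5%) lower in PTRF KO. In the matched nuclei without Nr4a UMIs, of 5772 genes 1045 (18.1%) were higher and 736 (12.8%) lower, so a difference of this size was not particular to Nr4a-high nuclei. Sgms2, sphingomyelin synthase, had 543 UMIs in PTRF KO and 1 in WT Nr4a-high nuclei, a ratio of 51.3 (9.16 to 2028). Prune2 had 1490 and 9 (15.6-fold), Pde10a, a cyclic nucleotide phosphodiesterase, 1664 and 11 (14.3-fold), and Igfn1, a Z-disc protein, 725 and 3, a ratio of 22.8 (7.77 to 111). Katnal2 had 275 and 0 UMIs and Lrrc3b 205 and 0, at least 8.65-fold and 6.45-fold higher against a floor of 3 UMIs in the WT set; the exact lower bounds of the 2 ratios were 6.99 and 5.20.

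On the lower side in PTRF KO were Arrdc2, an arrestin-domain protein, with 58 UMIs against 55 in WT (15.1 against 152 CPM, log2 ratio -3.33), Kcnab1, with 152 against 82 (39.6 against 227 CPM), and Fkbp5, a glucocorticoid-induced co-chaperone, with 78 against 36 (20.3 against 99.5 CPM). The 8 highest and 8 lowest genes all ran the same way past 1.5-fold in matched nuclei, with Sgms2 at 126 CPM in PTRF KO and 2.84 CPM in WT, and Arrdc2 at 13.2 and 147 CPM. Prune2 was also higher in Nr4a-high than in matched PTRF KO nuclei (1.33). Several genes that set Nr4a-high nuclei apart within PTRF KO had like levels between genotypes: Actn2 stood at 0.032, Ank2 at 0.025 and Rcan2 at 0.019 between PTRF KO and WT Nr4a-high nuclei, but at -1.69, -1.13 and -0.99 between matched nuclei. Irs2 was higher in PTRF KO in both sets, by 1.75 among Nr4a-high and 1.60 among matched nuclei on the log2 scale.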

How the data were processed

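Quadriceps nuclei of 1 PTRF KO and 1 WT library were analysed from the deposited matrices of raw UMI counts, whose headers name Cell Ranger 6.0.0 as the software the authors used. STAR, Seurat 4.1.1 and the builds mm10 and GRCm38 are listed in the submitters' processing notes. Neither source says whether introns were counted, how strand was used or how nuclei were called. The rule used at least 200 genes, 2 Nr4a UMIs and 10 Ttn UMIs. The members and gene lists were chosen with earlier results of these data known, and the rule used the Nr4a counts themselves.

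Each member was paired without replacement, deepest first, with the eligible nucleus of 0 Nr4a UMIs nearest in total, within 10%. Summed counts gave CPM, log2 ratios (0.5 UMI added), exact conditional binomial intervals for ratios, Poisson intervals for levels and Clopper-Pearson intervals for shares, all at 95%. PCR and capture errors are not in them. Genes were named by rank among those with at least 50 UMIs. The 12 highest and 12 lowest (8 and 8 between genotypes) by the interval bound nearest no difference were taken. Predicted, mitochondrial, ribosomal, haemoglobin and Y-linked genes and Xist were left out, while other X-linked genes stayed in. Members of the gene lists were named too: all of the early response, metabolic, myosin and knockout-ranked lists, up to 4 of each other. Some genes that the rule names are not reported here. Of 53700 features, 52147 matched GENCODE M21 by ID; of 62 ranked genes, 27 overlap another gene on the same strand and 17 on the opposite strand only. Doublets stayed in. The ratio calculation was tested on simulated data. Python 3.11.15, numpy 2.4.6 and scipy 1.17.1 were used. Alternatives are listed in the closing section.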

Additional observations from a re-analysis of the deposited data

Results flagged for a closer look

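Of 2069 genes that reached 50 UMIs in both libraries, 11 went opposite ways: Nr4a-high nuclei stood past 1.5-fold higher than matched nuclei in PTRF KO and past 1.5-fold lower in WT. The difference between the libraries was not tested, since there was 1 library per genotype; in 7 of the 11 both intervals lay away from 0. The log2 ratio in PTRF KO minus that in WT was 2.28 for Fhl1, a LIM-domain protein of the sarcomere (1.23 in PTRF KO, -1.05 in WT), and 2.20 for St3gal5, the synthase of the ganglioside GM3 (1.02 and -1.18). It was 1.91 for Mybpc1, slow myosin-binding protein C (1.09 and -0.83), from 4386 against 1974 UMIs in PTRF KO and 399 against 705 in WT. It was 1.47 for Gbe1, the glycogen branching enzyme (0.73 and -0.74), 1.57 for Tle1, a corepressor (0.67 and -0.90), 1.501 for Sorl1, a sorting receptor (0.76 and -0.74), and 1.38 for B3galt1 (0.64 and -0.73). In the other 4, the WT interval crossed 0: 1.96 for Gm10801, 1.76 for Plxna4, a semaphorin receptor, 1.63 for Nceh1, an ester hydrolase, and 1.53 for Slc7a11, the cystine transporter. St3gal5, Tle1, Sorl1, B3galt1, Gm10801, Plxna4, Nceh1 and Slc7a11 were named after their values were seen.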

How the results depend on the processing

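No paired analysis was possible because each genotype had 1 library. Nuclei led by Myh1 or Myh4 only, and Xist-marked nuclei only, were alternatives chosen after seeing the data. The PTRF KO minus WT share of Nr4a-high nuclei, 23.6 percentage points, kept its sign throughout: it was 13.2 with at least 3 and 8.16 with at least 4 Nr4a UMIs, 22.4 with at least 500 genes, 26.2 in Y-marked nuclei, 20.2 at 1000 to 3000 UMIs, 10.3 after thinning to 1000 UMIs, 21.3 in nuclei led by Myh4 and 42.2 in those led by Myh1.

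Counts of genes past 1.5-fold moved with the UMI minimum and with the nuclei kept, which also changed how many genes had enough UMIs. In PTRF KO, Nr4a-high over matched nuclei gave 449 higher and 253 lower of 7496 genes in the main setting. At 100 UMIs the counts were 248 and 108, and at 20 UMIs 879 and 663. Comparators of the same leading myosin gave 281 higher. Xist-marked nuclei gave 89 and 103 of 1832 genes (4.86% and 5.62%). Nuclei led by Myh1 gave 86 and 77 of 1674 (5.14% and 4.60%), against 5.99% and 3.38% in the main setting. In WT the counts were 23 and 24 at 100 UMIs and 458 and 338 at 20. They were 64 and 55 with at least 3 and 39 and 44 with at least 4 Nr4a UMIs. WT nuclei led by Myh1 gave 20 and 25 of 177 genes (11.3% and 14.1%), against 5.61% and 4.35% in the main setting. Between genotypes, 414 were lower at 100 UMIs, 1478 higher and 1845 lower at 20, 597 higher with 2 UMIs added to each sum, 436 lower at 1000 to 3000 UMIs, and 570 higher and 304 lower in nuclei led by Myh1.

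Among named genes past 1.5-fold, these changed sign; the cause was not tested. With at least 4 Nr4a UMIs, Kcnh7 stood at -1.46, Tpm3 at 0.020 and Ncam1 at 0.47. With comparators of the same leading myosin, Atf3 stood at -0.17 and Hspb7 at -0.0074, and Lama2 in WT at -0.17. In nuclei led by Myh1, Atf3 stood at -2.81, Lpl at -0.66, Ehd4 at -0.41, Grb14 at -0.35, Rcan2 at -0.32, Cd36 at -0.24, Mybpc1 at -0.19, Il15 at -0.14, Ankrd2 at -0.063, Actn2 at -0.046, Myh1 at -0.034, Tbc1d1 at -0.021, Ank2 at -0.016 and Dach2 at -0.0074. No other gene past 1.5-fold changed sign among those read under the alternatives of this section. Ranked genes were read in the comparison that ranked them, and list members in PTRF KO only. Other named ratios were not read, such as Ldha and Irs2 in WT and Prune2 over matched PTRF KO nuclei. Nor were those of the flagged genes St3gal5, Tle1, Sorl1, B3galt1, Gm10801, Plxna4, Nceh1 and Slc7a11. Genes with under 20 UMIs in a setting were not read, so nuclei led by Myh1 covered 67 of 109 genes in PTRF KO. Smaller subsets stood outside these alternatives. In PTRF KO pairs led by Myh2, 4 of 6 ranked higher genes with at least 20 UMIs kept their direction. In Y-marked WT pairs led by Myh4, 10 of 11 did. Shallow WT nuclei limit every WT value.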
